A study of Mus musculus with 2 samples.

Results

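PIWI proteins and the factors that make and load their small RNAs were followed through a precipitation of FLAG-tagged Nanos2 from fetal mouse testes. The set comprised 9 genes (Piwil2, Piwil4, Mov10l1, Pld6, Asz1, Gtsf1, Mael, Henmt1 and Exd1), taken by gene symbol or by an older alias of the same gene. They were read by 11 of the 41174 non-control probes of the array, with 2 probes each for Mov10l1 and Gtsf1 and 1 for each other gene. Of the 9 genes, 8 passed the filter on dim probes and were among the 15266 genes tested, each well above background on all 4 arrays. Piwil4 did not pass.

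The compared groups were RNA recovered with anti-FLAG M2 agarose (FLAG IP) and RNA that had not been precipitated (input). The tissue of both was the male gonad at embryonic day 14.5, from mice of the MCH strain, and both carried the same transgene, in which a Nanos2 enhancer drives 3xFLAG-tagged Nanos2 followed by the Nanos2 3′UTR. Each group had 2 one-colour Agilent arrays, described by the submitters as biological duplicates. A precipitation from gonads without the FLAG tag was not analysed here, so RNA held by the tagged protein and RNA held by the beads cannot be told apart. Nanos2 is an RNA-binding protein of male germ cells that lowers the amount of its target mRNAs, and the comparison asks which mRNAs were recovered with it.

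PIWI-interacting RNAs (piRNAs) are short germline RNAs that guide PIWI proteins to transcripts of transposons. In fetal male germ cells long precursors are cut at the outer membrane of mitochondria and in nearby granules, loaded onto Piwil2 (MILI), trimmed and methylated. Piwil2-dependent piRNAs are in turn passed to Piwil4 (MIWI2), which enters the nucleus and directs DNA methylation of transposon copies. Germ cells carry nearly all of this machinery in the testis, so in whole-gonad RNA its transcripts come from a minority lineage. For such bulk samples, fewer cells of a type and less RNA per cell cannot be told apart.

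Signal was unequal between the FLAG IP arrays. The 75th percentile of spot signal was 55.7 and 608 intensity units on FLAG IP arrays 1 and 2, against 1026 and 1038 on input arrays 1 and 2. All values below are therefore scaled signals, the signal of a probe divided by that percentile of its own array, and log2 fold changes are FLAG IP over input on the log2 of that scale. Between 42.7% and 65.4% of spots were well above background in FLAG IP, against 66.0% and 70.2% in input. Nanos2 itself had a scaled signal of 1.48 and 1.22 in FLAG IP, against 0.398 and 0.337 in input. Its log2 fold change was 1.88 ± 0.20 (SE, n = 2 arrays per group; limma adjusted p = 0.00477), which does not separate transgene from endogenous mRNA. The 12 germ cell markers tested, which include Ddx4, summed to 117 and 113 in FLAG IP, against 49.0 and 52.0 in input. All 11 Sertoli cell markers and all 6 Leydig cell markers tested fell, with sums of 26.4 and 26.7 in FLAG IP, against 161 and 142 in input, for Sertoli cells, and 20.2 and 19.5 in FLAG IP, against 140 and 128 in input, for Leydig cells. The germ cell list had 7 genes higher, 1 lower and 4 not called, with a median log2 fold change of 1.43. Of the other marker genes tested, all 6 of interstitial mesenchyme and 3 of 7 of endothelium fell. So did 3 of 4 of macrophages and 3 of 4 of erythroid cells, and none was called higher. The endothelial list was mixed. Its Flt1 had both FLAG IP arrays above both input arrays, at a log2 fold change of 0.89 (limma adjusted p = 0.108). Averaging the probes of each gene called 1 endothelial marker higher. The summed signals were 40.2 and 28.0 in FLAG IP, against 203 and 195 in input, for mesenchyme. For endothelium the sums were 7.97 and 4.71 in FLAG IP, against 9.20 and 7.27 in input. The sums were 0.751 and 0.798 in FLAG IP, against 4.14 and 4.03 in input, for macrophages. For erythroid cells the sums were 3.80 and 2.59 in FLAG IP, against 17.4 and 16.4 in input. No marker of the germ, Sertoli or Leydig lists was without a signal well above background. What these marker changes reflect, and what part they have in the results for the piRNA genes, was not tested.

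Of the 8 piRNA genes tested, 3 rose in FLAG IP (Henmt1, Exd1 and Asz1), none fell and 5 were not called at an adjusted p below 0.05 (limma, Benjamini-Hochberg over all 15266 genes). At that threshold 28.0% of all genes were called higher and 25.4% lower, against 37.5% and 0 of the 8. Both FLAG IP arrays lay above both input arrays for 4 of the 8, and none had both below. Among all genes those shares were 42.0% above and 38.2% below. The median log2 fold change of the 8 was 0.34, beside 0.07 over all genes tested. At an unadjusted p below 0.05 the counts were the same 3 higher and 0 lower. The genes that rose were the 3′-end methyltransferase, the partner of a Tudor protein and the mitochondrial scaffold. Piwil2, Mov10l1, Pld6, Gtsf1 and Mael had 95% intervals that included 0.

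**Figure D1:**
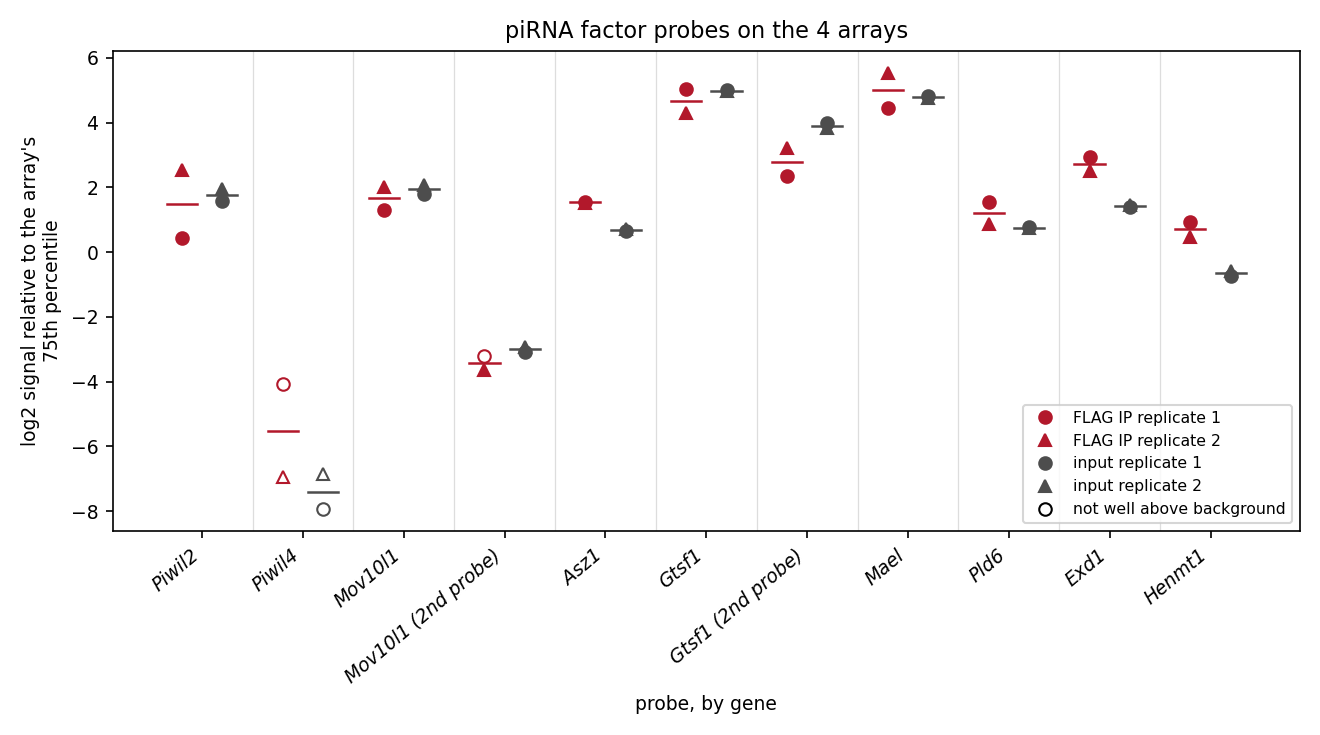
Scaled signal of the 11 piRNA factor probes on each array, as log2 relative to the array's 75th percentile, with FLAG IP (red) left of input (grey) for each probe. Circles are replicate 1, triangles replicate 2, bars the mean of both arrays and open symbols spots not well above background. The FLAG IP arrays of Asz1 lie close together above input, those of Piwil2 lie on either side of input, and Piwil4 is open on all 4 arrays.

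Among the PIWI genes, Piwil2 encodes MILI, the PIWI protein that takes up piRNAs first in fetal germ cells. Its scaled signal was 1.35 and 5.76 on FLAG IP arrays 1 and 2, against 2.99 and 3.84 on input arrays 1 and 2. The FLAG IP arrays thus fell on either side of both input arrays. The log2 fold change was -0.28 ± 0.76 (SE, n = 2 arrays per group), with a 95% interval of -2.38 to 1.81 and a limma adjusted p of 0.774. That interval is the widest of the 8 genes and holds both the rise seen for Henmt1 and a fall of the same size. With FLAG IP array 1 left out the estimate was 0.76, and with FLAG IP array 2 left out it was -1.33. In those fits the lone FLAG IP array is assumed to vary like the closely matching input pair, and they called 6204 genes higher and 6212 lower, and 6845 higher and 5705 lower, so their p-values are not read as calls. Direction for Piwil2 therefore rested on which FLAG IP array was used. The processed signal of its spot was 75.05 and 3502 units in FLAG IP, against 3066 and 3986 units in input. On FLAG IP array 1 the spot's median was 139 against a local background of 61, so it was dim there but above background.

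Piwil4 encodes MIWI2, the nuclear PIWI protein that directs DNA methylation in fetal male germ cells. Its single probe was well above background on none of the 4 arrays. Spot medians were 72 and 78.5 in FLAG IP, against 75 and 78 in input, over local backgrounds of 63 and 67 in FLAG IP and 63.5 and 63 in input. Since both groups were below the detection mark, no fold change is given. Whether the transcript was rare or the probe read it poorly was not tested. Piwil1 (MIWI), the PIWI protein best known from postnatal spermatogenesis, had a scaled signal of 1.09 and 0.763 in FLAG IP, against 0.437 and 0.490 in input. It was called higher, at a log2 fold change of 0.98 (limma adjusted p = 0.0329). The call was lost under another background correction, normexp (0.75, limma adjusted p = 0.139), without the filter on dim probes (limma adjusted p = 0.0815) and without either input array. Piwil1 belongs to the wider pathway list described further on.

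Precursor processing is represented by Mov10l1, Pld6 and Asz1. Mov10l1 is an RNA helicase that binds piRNA precursors and hands them on for cutting. Its brighter probe read 2.48 and 4.05 in FLAG IP, against 3.50 and 4.21 in input, so the groups overlapped. The log2 fold change was -0.28 ± 0.31 (SE, n = 2 arrays per group; 95% interval -1.13 to 0.57; limma adjusted p = 0.485). With FLAG IP array 1 left out it was 0.08. The dimmer probe of Mov10l1 read 0.108 and 0.0797 in FLAG IP, against 0.118 and 0.132 in input. It lay lower in FLAG IP without overlap, but was not well above background on FLAG IP array 1 and was not called (log2 fold change -0.43; limma adjusted p = 0.207 over all probes).

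Pld6 (MitoPLD, Zucchini in flies) is the nuclease of the outer mitochondrial membrane that cuts piRNA precursors. It read 2.96 and 1.83 in FLAG IP, against 1.71 and 1.67 in input. Both FLAG IP arrays were above both input arrays, array 2 by little. The log2 fold change of 0.46 ± 0.29 (SE, n = 2 arrays per group) had a 95% interval of -0.33 to 1.25 and was not called (limma adjusted p = 0.242). Asz1 (GASZ) is a germ cell protein that anchors piRNA factors to mitochondria and to the granules between them. It read 2.95 and 2.86 in FLAG IP, against 1.57 and 1.63 in input. The FLAG IP arrays were close to each other and clear of input, and Asz1 rose by 0.86 ± 0.16 on the log2 scale (SE, n = 2 arrays per group; 95% interval 0.43 to 1.29; limma adjusted p = 0.0143), or 1.82-fold. Of 3 genes of precursor processing, then, 1 was called higher and the other two were not called.

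The PIWI partner Gtsf1 is a small zinc finger protein that assists target cleavage by PIWI proteins. The brighter of its probes read 32.9 and 19.5 in FLAG IP, against 32.0 and 31.7 in input. FLAG IP array 1 was level with input and array 2 below it, and the log2 fold change was -0.33 ± 0.31 (SE, n = 2 arrays per group; 95% interval -1.17 to 0.51; limma adjusted p = 0.412). The other probe of Gtsf1 read 5.14 and 9.28 in FLAG IP, against 15.8 and 14.2 in input. There both FLAG IP arrays were below both input arrays, by -1.12 ± 0.35 on the log2 scale (SE; 95% interval -2.10 to -0.13), with a limma adjusted p of 0.0689 over all probes. The probes disagreed on which FLAG IP array was the higher. Averaging them gave -0.72 with a limma adjusted p of 0.0212, so the call for Gtsf1 depended on how its probes were combined. Its sign depended on the normalization, and on the brighter probe FLAG IP array 1 alone lay just above both input arrays. Quantile normalization, which gives all arrays the same distribution of values, put Gtsf1 at 0.27, not called (limma adjusted p = 0.516). Both carry the same transcript accession in the array's annotation.

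Mael encodes Maelstrom, a protein of germ granules needed for transposon silencing. Its scaled signal was 22.1 and 46.8 in FLAG IP, against 28.2 and 27.2 in input. As for Piwil2, the FLAG IP arrays lay on either side of input. The log2 fold change was 0.21 ± 0.41 (SE, n = 2 arrays per group; 95% interval -0.91 to 1.34; limma adjusted p = 0.684). With FLAG IP array 1 left out it was 0.76, and with FLAG IP array 2 left out it was -0.33, each from a lone FLAG IP array. The sign for Mael also depended on the processing. The normexp correction put Mael at -0.41 (limma adjusted p = 0.713) and quantile normalization at 0.84 (limma adjusted p = 0.242), neither called.

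The last 2 genes are Henmt1 and Exd1. Henmt1 is the methyltransferase that modifies the 3′ end of piRNAs and so protects them. It read 1.93 and 1.37 in FLAG IP, against 0.594 and 0.675 in input. Both FLAG IP arrays were well clear of input. Henmt1 rose by 1.36 ± 0.24 on the log2 scale (SE, n = 2 arrays per group; 95% interval 0.70 to 2.02; limma adjusted p = 0.0133), or 2.57-fold. Exd1 is an RNA-binding partner of Tdrd12 that promotes the production of Piwil4-bound piRNAs in mouse fetal germ cells. It read 7.68 and 5.73 in FLAG IP, against 2.61 and 2.74 in input. Again the groups were far apart, and Exd1 rose by 1.31 ± 0.21 on the log2 scale (SE, n = 2 arrays per group; 95% interval 0.72 to 1.91; limma adjusted p = 0.0111), or 2.49-fold.

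Without FLAG IP array 1 the log2 fold changes of Henmt1, Exd1 and Asz1 were 1.12, 1.10 and 0.84, and without FLAG IP array 2 they were 1.61, 1.52 and 0.88. Leaving out an input array kept the size but ended the calls. Without input array 1 the values were 1.27, 1.28 and 0.84 (limma adjusted p = 0.116, 0.112 and 0.262), and without input array 2 they were 1.45, 1.35 and 0.89 (limma adjusted p = 0.0792, 0.0947 and 0.231). The normexp correction ended them too, at 1.17, 0.73 and 0.41 on the log2 scale (limma adjusted p = 0.0555, 0.146 and 0.424), while moving the median of all genes to 0.38. Without any scaling of the arrays the values were -1.13 for Henmt1, -1.17 for Exd1 and -1.63 for Asz1, where the median of all genes was -2.41.

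**Figure D2:**
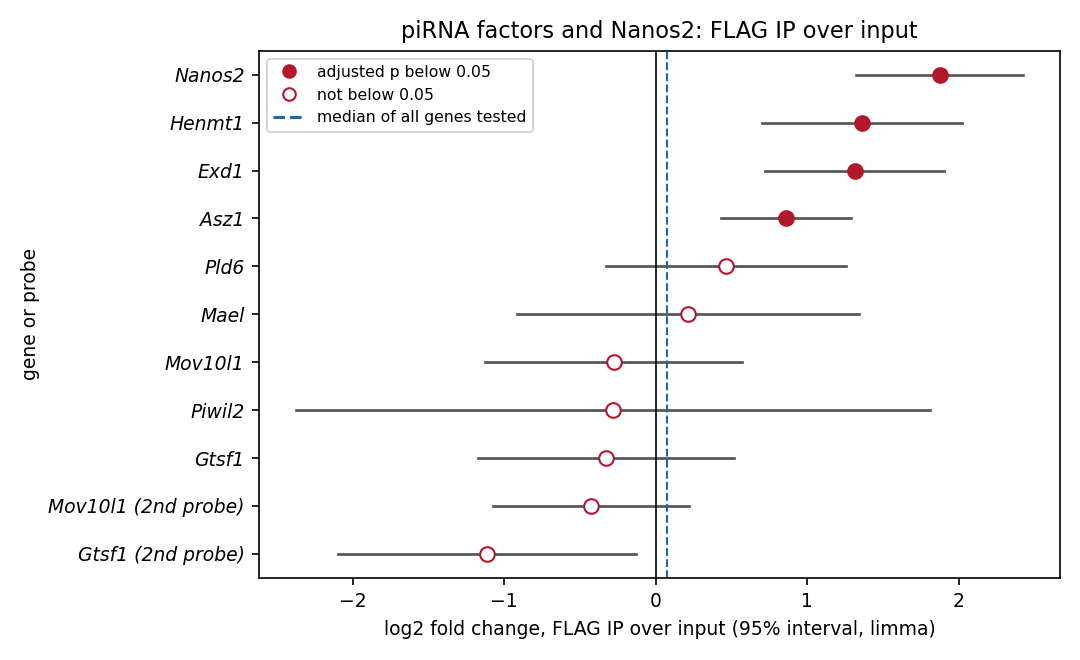
Log2 fold change of FLAG IP over input with its 95% interval from limma (horizontal axis) for the tested piRNA factor probes and Nanos2 (vertical axis). Filled points have an adjusted p below 0.05 and the dashed line is the median of all genes, 0.07. Henmt1, Exd1 and Asz1 are filled with intervals above 0, and the interval of Piwil2, -2.38 to 1.81, is the widest.

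Ordered by log2 fold change, a difference and not a level, the genes ran Henmt1, Exd1, Asz1, Pld6, Mael, Mov10l1, Piwil2 and Gtsf1. The 95% intervals of all 7 neighbouring pairs overlapped, and in 5 of the 7 the gap was smaller than its combined SE. The largest gap, between Mael and Mov10l1, was 0.493 with a combined SE of 0.512. The gap exceeded its combined SE for Exd1 and Asz1 (0.453, combined SE 0.266) and for Asz1 and Pld6 (0.398, combined SE 0.327). Among all genes tested, 83.9% had a lower log2 fold change than Henmt1, 83.0% than Exd1 and 72.5% than Asz1. For Piwil2 that share was 40.2% and for Gtsf1 38.8%.

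The ratio of a pair of probes on the same array does not depend on a divisor applied to that whole array. Quantile normalization is not such a divisor, and under it the log2 fold changes were 1.37 for Henmt1 and 0.27 for Gtsf1. The 3 ratios below were formed after the values were seen. Henmt1 relative to the brighter Gtsf1 probe was 0.0586 and 0.0705 in FLAG IP, against 0.0186 and 0.0213 in input, a 3.23-fold difference. Since that pair had the highest and the lowest log2 fold change of the 8, the difference is a description with no test. Henmt1 relative to Exd1 was 0.251 and 0.240 in FLAG IP, against 0.228 and 0.247 in input, a ratio of 1.03. That pair kept nearly the same proportion on all 4 arrays. Piwil2 relative to Mael was 0.0610 and 0.123 in FLAG IP, against 0.106 and 0.141 in input, so the groups overlapped.

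The members also differed in how closely the FLAG IP arrays repeated each other. FLAG IP array 1 minus array 2 was -2.10 for Piwil2 on the log2 scale, a 4.28-fold gap, and 2.44% of all genes had a larger one. Among the 3686 genes with an input level within 1 log2 unit of Piwil2, the share was 0.244%. Mael followed at -1.08 (2.12-fold), with a larger gap in 12.1% of all genes. At the other end the gap was 0.05 for Asz1, and 94.2% of genes had a larger one. The gaps did not share a direction, since 5 of the 8 genes were higher on FLAG IP array 1 and 3 (Piwil2, Mael and Mov10l1) were higher on array 2. The median absolute gap over all genes was 0.43. What set Piwil2 apart was not tested.

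**Figure D3:**
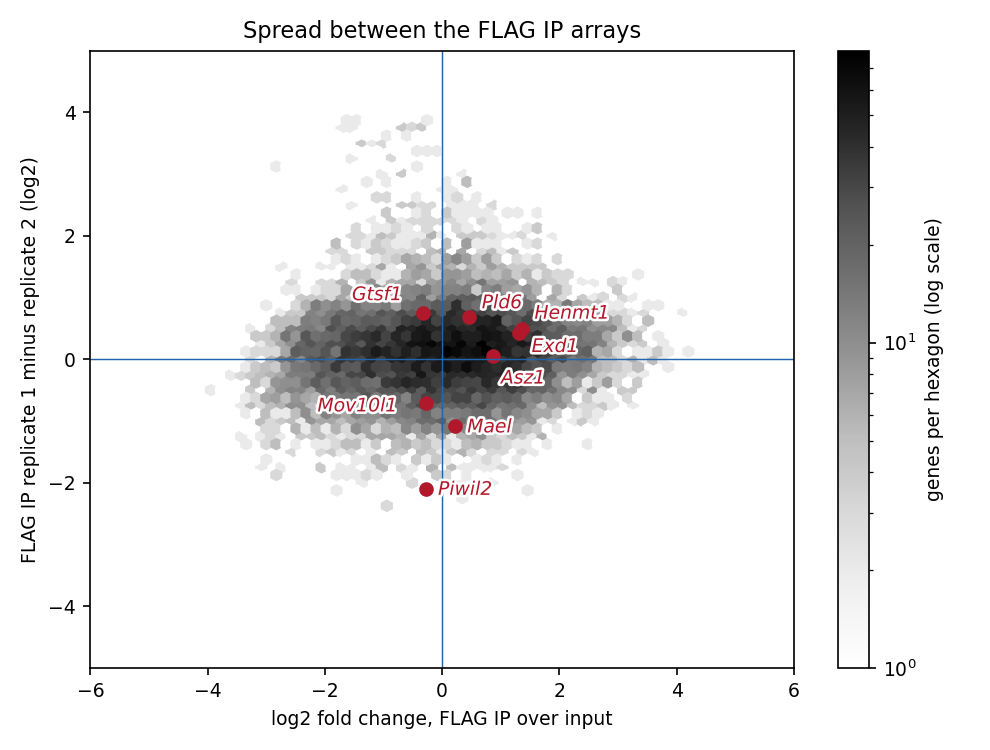
Log2 fold change of FLAG IP over input (horizontal axis) against FLAG IP array 1 minus array 2 in log2 units (vertical axis) for all genes tested, shaded by the number of genes per hexagon on a log scale, with the 8 piRNA genes in red. Piwil2 lies at the lower edge of the cloud at -2.10, and Asz1 lies near 0 at 0.05.

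Genes whose pattern over the 4 arrays was most like that of Piwil2 were found from the root mean square difference of values centred on each gene's mean. Over 14511 genes compared, the nearest were Hoxa9 (0.0708), Smg8 (0.109) and Klk1b8 (0.129), in log2 units. Their own log2 fold changes were -0.27, -0.13 and -0.25, which lie near that of Piwil2 because the genes were picked on these same values. None of them is among the piRNA genes listed here. The match also follows the wide gap of Piwil2 between the FLAG IP arrays, so it is a description with no test.

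The wider pathway was described with 27 further genes, of which 22 had a probe and 20 were tested. Of the 20, 7 rose, 2 fell and 11 were not called, with a median log2 fold change of 0.54 beside 0.07 over all genes. Over all genes tested 28.0% were called higher and 25.4% lower. Mybl1, a transcription factor of pachytene piRNA loci, and Rnf17, a Tudor protein of later germ cells, had probes but did not pass the filter. No probe carried the name of Tdrd15, Pnldc1, Spocd1, Btbd18 or Dnmt3c, so these genes were not analysed here. These counts include Ddx4, which is also on the germ cell list.

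Among the genes that rose, Tex15, which acts with Piwil4 in transposon methylation, read 21.6 and 24.2 in FLAG IP, against 3.96 and 4.45 in input. Its log2 fold change of 2.45 (limma adjusted p = 0.00381) was the highest of the list and exceeded that of Nanos2. Ddx4, the germ granule helicase also called Vasa, read 57.3 and 38.1 in FLAG IP, against 14.5 and 14.6 in input, at a log2 fold change of 1.69 (limma adjusted p = 0.00954). Tdrd1, the Tudor protein that binds Piwil2, read 44.1 and 48.1 in FLAG IP, against 17.3 and 20.9 in input, and rose by 1.28 (limma adjusted p = 0.00858). For these 3 genes the arrays of the groups lay far apart. Kif17 (1.89), Tdrd5 (0.78) and Wdr77 (0.75) also rose. The dimmer probe of Tdrd5 overlapped between groups and was not called (0.31, limma adjusted p = 0.341 over all probes). Under the normexp correction Tdrd5 was at 0.16 (limma adjusted p = 0.765), and Tdrd1, Kif17 and Wdr77 were not called either. Kif17 was well above background on only 1 of the FLAG IP arrays, and Wdr77 was not called when its probes were averaged (0.34, limma adjusted p = 0.148).

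The genes that fell were Mov10 and Dnmt3a. Mov10, the widely expressed relative of Mov10l1, read 3.55 and 3.63 in FLAG IP, against 7.41 and 7.28 in input. It fell by 1.03 ± 0.15 on the log2 scale (SE, n = 2 arrays per group; limma adjusted p = 0.00913), with both FLAG IP arrays below input. Under the normexp correction Mov10 was not called (-1.08, limma adjusted p = 0.0633). Dnmt3a, a DNA methyltransferase, had a log2 fold change of -0.75 (limma adjusted p = 0.0211). A dimmer probe of Dnmt3a was also called lower (-0.93, limma adjusted p = 0.0426 over all probes). Another was not called (-0.40, limma adjusted p = 0.297 over all probes). The call was lost under the normexp correction (-1.16, limma adjusted p = 0.0684) and without the filter on dim probes (limma adjusted p = 0.0563). Dnmt3l, the germ cell cofactor of Dnmt3a and a partner in methylating transposons, was not called at -0.39. Fkbp6 was not called on its brighter probe (-0.32, limma adjusted p = 0.158). Its dimmer probe had both FLAG IP arrays below both input arrays and was called lower (-0.91, limma adjusted p = 0.0466 over all probes). Quantile normalization put Fkbp6 at 0.46, not called (limma adjusted p = 0.0754). Among the Tudor genes, Tdrd12, the partner of Exd1, had a log2 fold change of 0.50 and Tdrkh, which helps trim piRNAs, of 0.42, and neither was called. Tdrd7, at 0.85, read 12.3 and 25.5 in FLAG IP, against 9.89 and 9.73 in input, and was not called either. Its FLAG IP arrays differed in the same direction as those of Piwil2 and Mael.

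**Figure D4:**
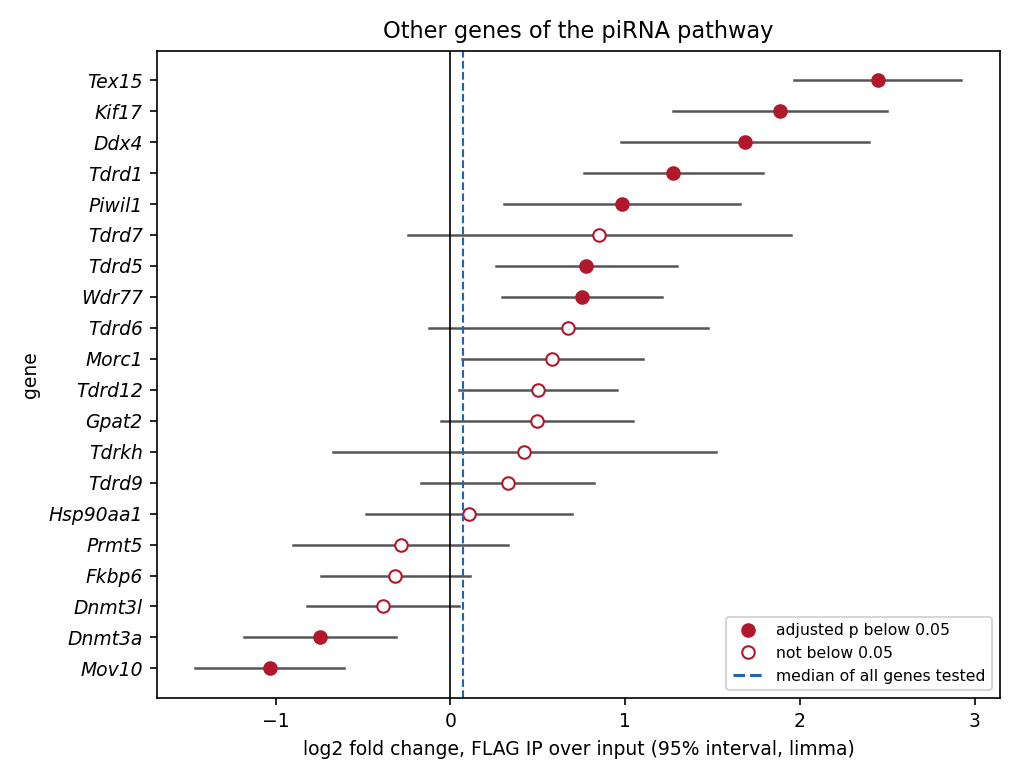
Log2 fold change of FLAG IP over input with its 95% interval from limma (horizontal axis) for the 20 other piRNA pathway genes tested (vertical axis). Filled points have an adjusted p below 0.05 and the dashed line is the median of all genes, 0.07. Tex15 at 2.45 is the highest, and Mov10 at -1.03 and Dnmt3a at -0.75 are the filled points below 0.

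**Figure D5:**
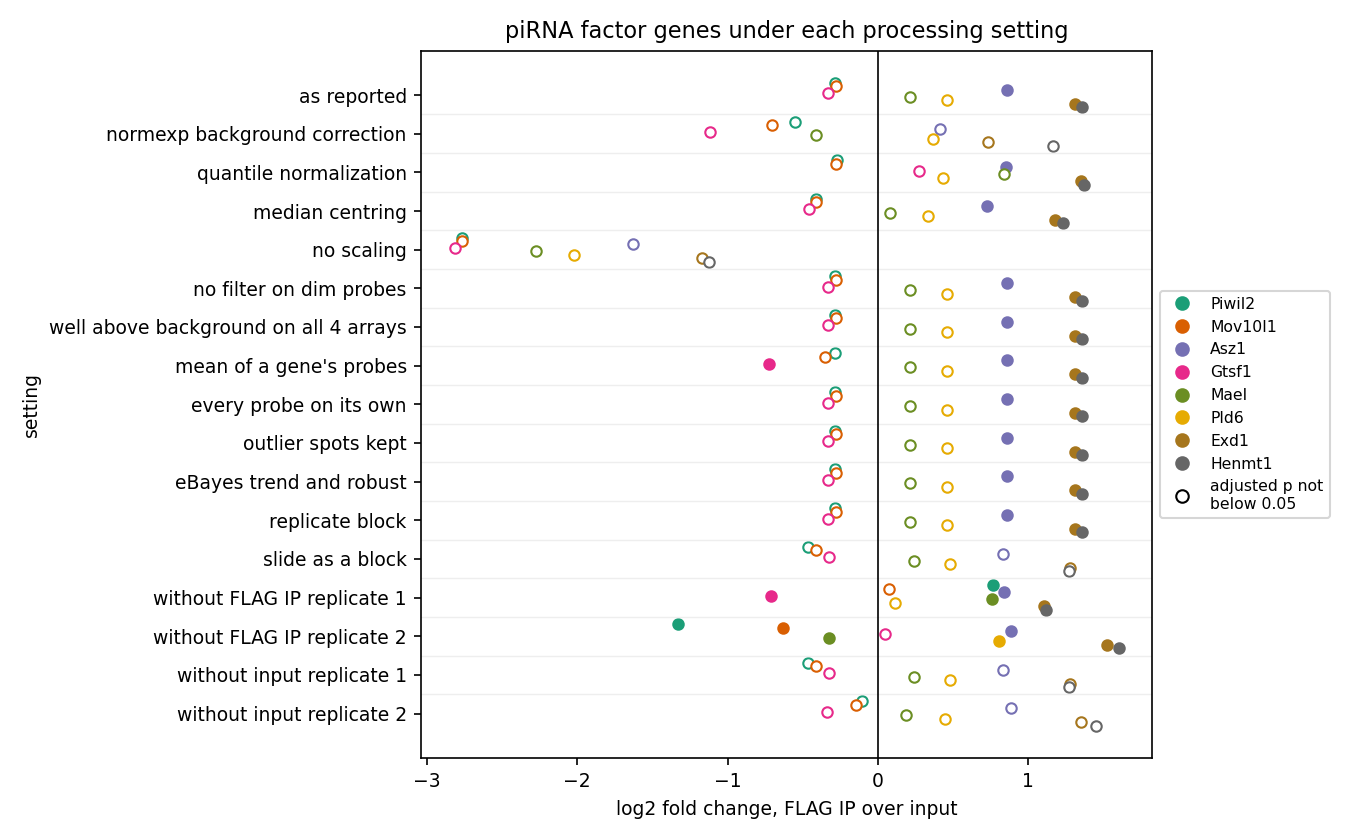
Log2 fold change of FLAG IP over input (horizontal axis) for the 8 piRNA genes under each processing setting (vertical axis), with filled points for an adjusted p below 0.05. Henmt1, Exd1 and Asz1 lie above 0 under every setting except no scaling, where the median of all genes was -2.41, and Piwil2 lies at 0.76 without FLAG IP array 1 and at -1.33 without FLAG IP array 2.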

How the data were processed

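Per the labels, 0.20 µg of RNA per array was amplified and labelled with Cy3. The submitters' processing notes name Agilent Feature Extraction 9.5 as the reader. The deposited scanner files hold background-corrected signal as intensity on a linear scale, per the file headers. A table deposited by the authors holds a ratio of FLAG IP to input per probe. It also holds a raw signal per group, which is the mean of both arrays. How the ratio was formed was not tested. The authors' table was used for comparison only.

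Signals were divided by each array's 75th percentile over non-control spots and taken to log2. Outlier spots were left out (52 to 104 per array), and no spot was saturated. A probe was kept where 1 group or more had both of its arrays well above background, and the probe with the highest mean stood for its gene. Groups were compared with limma 3.58.1 (2 residual degrees of freedom) and Benjamini-Hochberg adjustment. A first run on simulated data checked that added changes were recovered on average, and set no rule on false calls. Probes were named through Entrez gene identifiers and a RefSeq gene table (GRCm38.p6). 5 of the 11 piRNA probes, of 4 genes, carry an older name in the file. The text names every piRNA gene with its probes, the listed pathway and marker genes, Nanos2, and the 3 genes most like each tested PIWI gene. Genes and lists were chosen with earlier results of these data known. Replicate numbers in the labels do not state a shared animal or day, so p-values measure only the spread between these arrays. The number of arrays limits the precision.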

Additional observations from a re-analysis of the deposited data

How the results depend on the processing

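Henmt1, Exd1 and Asz1 kept a positive log2 fold change under every alternative that scaled the arrays. Without scaling, all genes shifted by a median of -2.41, and the log2 fold changes became -1.13 for Henmt1, -1.17 for Exd1, -1.63 for Asz1, -1.50 for Piwil1, -1.21 for Tdrd1, -1.71 for Tdrd5, -0.80 for Ddx4, -0.041 for Tex15, -1.73 for Wdr77, -0.60 for Kif17 and -0.61 for Nanos2. No gene was then called by limma, although 4047 were lower at an unadjusted p below 0.05. The normexp correction left 0 piRNA genes higher, 2 other pathway genes higher and 0 lower, and 1272 genes higher and 1398 lower in all. Without the filter on dim probes the other pathway genes had 4 higher and 1 lower. Quantile normalization gave 10 of them higher and 2 lower, adding Gpat2 (1.35), Hsp90aa1 (1.16) and Morc1 (0.70) to those called higher. Averaging probes called 1 piRNA gene lower (Gtsf1), and testing each of 26529 probes gave 6167 higher and 5954 lower. Replicates of a number deviated together only weakly (correlation 0.05 across genes), and whether they share a lysate is not stated in the labels. With the replicate block 1 other pathway gene was lower, and 4130 genes were higher and 3875 lower. Input array 1 was alone on its slide, so the slide as a block equals leaving it out: 0 piRNA genes higher, 1 other pathway gene higher and 0 lower, and 1431 genes higher and 1545 lower. Leaving out each array gave 0 to 5 piRNA genes higher and 0 to 3 lower, 1 to 13 other pathway genes higher and 0 to 5 lower, and 1431 to 6845 genes higher and 1545 to 6212 lower. The lone array of a group is then assumed to vary like the other pair, which was the input pair in the fits with the highest counts of all genes. Piwil2 was 0.76 without FLAG IP array 1 and -1.33 without FLAG IP array 2. Mael was -0.33 without FLAG IP array 2, and Mov10l1 was 0.08 without FLAG IP array 1. The cause of these changes was not tested. FLAG IP array 1 was the dimmest, at a 75th percentile of 55.7 units, which limits genes read near background there.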

Other observations

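Relative to the median of all genes under the normexp correction, 0.38, Henmt1 was 0.79 higher on the log2 scale, Exd1 0.35 and Asz1 0.03, while Gtsf1 was at -1.50. In the authors' deposited table the ratio of FLAG IP to input was 2.36 for Henmt1, 2.29 for Exd1, 1.67 for Asz1, 1.27 for Pld6 and 1.07 for Mael. The authors' deposited table gives 0.752 for Piwil2, 0.757 and 0.684 for the probes of Mov10l1, and 0.733 and 0.425 for those of Gtsf1. For Piwil4 the authors' deposited table lists a ratio of 3.20, beside raw signals of 4.11 in FLAG IP and 6.53 in input. That probe was well above background on no array.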
